A study of Mus musculus with 6 samples.

Results

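The genes described here are the blood GATA factors Gata1, Gata2 and Gata3 and their cofactor Zfpm1, which encodes FOG1. They were followed on 6 one-colour microarrays of mouse Lhx2 cells. Probes were chosen by name alone: a probe belonged to the group if its RefSeq transcript accession mapped to one of the 4 symbols. This gave 5 of the 41174 probes on the array, and 4 of the 16535 genes that could be given a symbol. Gata2 had 2 probes, A_51_P516625 and A_52_P233441, both annotated to NM_008090. Gata1 (A_52_P670095, NM_008089), Gata3 (A_52_P546363, NM_008091) and Zfpm1 (A_51_P360840, NM_009569) had 1 probe each. All 5 probes were well above background on all 6 arrays, so each passed the filter on dim probes through both groups.

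Lhx2 cells are mouse blood progenitor-like cells that keep growing because Lhx2, a LIM-homeobox gene, has been forced on in them. All 6 samples were grown with stem cell factor and human interleukin 6 and were starved of serum overnight. The 3 treated samples then received 10 ng/ml of TGF-β1, the cytokine transforming growth factor β1, over 2 h, and the 3 untreated samples did not. RNA came from 3 separate harvests, numbered as replicates, so each number gives a pair of samples. The p-values measure the spread between these samples. The series title names Gata2 together with TGF-β, Smad4 and p57 in progenitor proliferation, and the comparison asks whether the transcripts of the GATA factors differed after treatment.

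GATA factors are zinc-finger proteins that bind DNA at short sites with the core GATA. In blood, GATA2 is needed for the upkeep of stem and progenitor cells and is used in mast cells, GATA1 drives erythroid and megakaryocyte maturation, and GATA3 serves T cells and type 2 lymphoid cells. GATA1 replaces GATA2 at shared sites as erythroid cells mature, which is known as the GATA switch. FOG1 does not bind DNA at these sites itself. It attaches to the amino-terminal zinc finger of a GATA factor and brings in the NuRD and CtBP corepressors.

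Gata2 and Zfpm1 were the members with higher values after treatment in every pair. Because their values went in the same direction, the 250 bases upstream of their RefSeq start sites (assembly GRCm38.p6) are shown. The table gives 2 starts for Gata2, 4773 bases apart, and 1 for each other member. Short motifs were searched on both strands: the GATA site (AGATAA or AGATAG, and also TGATAA or TGATAG), the SMAD-type CAGA box (CAGAC), the GC-rich SMAD-type site (GGCGCC) and the CCAAT box (CCAAT). Matches are in capitals, those on the opposite strand read as their complement, and no match overlaps another.
Gata2 upstream start, chr6:88193641-88193890, plus strand: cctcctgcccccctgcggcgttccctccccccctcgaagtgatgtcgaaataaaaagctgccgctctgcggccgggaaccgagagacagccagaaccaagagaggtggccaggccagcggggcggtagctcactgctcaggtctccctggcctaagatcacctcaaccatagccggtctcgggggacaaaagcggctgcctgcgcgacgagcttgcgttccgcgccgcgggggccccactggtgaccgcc
Gata2 downstream start, chr6:88198414-88198663, plus strand: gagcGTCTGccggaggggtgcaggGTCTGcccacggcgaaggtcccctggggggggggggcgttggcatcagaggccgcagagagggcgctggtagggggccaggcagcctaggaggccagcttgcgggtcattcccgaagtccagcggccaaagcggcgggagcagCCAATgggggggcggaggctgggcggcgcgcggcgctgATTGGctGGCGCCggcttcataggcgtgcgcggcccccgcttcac
Zfpm1, chr8:122281891-122282140, plus strand: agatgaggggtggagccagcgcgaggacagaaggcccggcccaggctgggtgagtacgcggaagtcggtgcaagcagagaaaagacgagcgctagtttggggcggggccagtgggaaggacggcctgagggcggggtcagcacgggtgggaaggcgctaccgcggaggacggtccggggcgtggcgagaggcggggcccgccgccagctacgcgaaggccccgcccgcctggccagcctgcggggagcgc

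The downstream Gata2 window held 2 matches to CAGAC, first bases 246 and 226 upstream of the start, 2 to CCAAT, at 83 and 45, and 1 to GGCGCC, at 38. Of all 32851 windows of this length, 42.2% held CAGAC, 33.8% CCAAT and 9.59% GGCGCC. The upstream Gata2 window and the Zfpm1 window held 0 matches to any of the motifs. The Gata3 window, which is not shown, also held 1 match to GGCGCC, at 212. The Gata1 window held 0 matches to any motif. A GATA site was found in 26.5% of all windows and in 0 of the 5 windows of the 4 members, which says only that these letters are not in these windows. The 3 windows shown were rich in G and C, at 67.2%, 74% and 73.2% against a median of 52.4%. The array files do not say which Gata2 start a probe reads.

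Gata2, the progenitor GATA factor, gave a strong signal on every array. Its first probe, A_51_P516625, read a background-corrected signal of 12510, 11311 and 7539.9 in untreated replicates 1, 2 and 3. In the treated replicates it read 21028, 21766 and 14312. The treated sample was the higher one in every pair, and replicate 3 was the lowest in both groups. On the log2 scale relative to each array's 75th percentile, the level used for all tests, the untreated samples had 3.80, 3.50 and 3.25 and the treated samples 4.57, 4.44 and 3.80. The groups met without overlapping, the lowest treated sample lying 0.00027 above the highest untreated one.

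The second Gata2 probe, A_52_P233441, gave the same picture. It read 6342.4, 5662.9 and 4095.6 in the untreated samples and 11238, 10314 and 8034.9 in the treated ones. Its log2 levels were 2.82, 2.50 and 2.37 against 3.67, 3.36 and 2.96, and here the groups stood 0.15 apart. Within pairs the log2 change was 0.78, 0.94 and 0.55 for the first probe and 0.86, 0.86 and 0.60 for the second. The centred profiles of these 2 probes over the 6 arrays differed by a root mean square of 0.082 log2 units. The fitted change was 0.76 (SE 0.25, 95% confidence interval 0.15 to 1.36), or 1.69-fold, for the first probe and 0.77 (SE 0.22, 0.24 to 1.30), or 1.71-fold, for the second (n = 3 per group).

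Zfpm1, the FOG1 gene, also gave a strong signal and followed Gata2. Its signal was 12562, 9218.1 and 7467.3 in the untreated samples and 18660, 15556 and 13743 in the treated ones. Its log2 levels were 3.80, 3.20 and 3.23 untreated and 4.40, 3.95 and 3.74 treated. The treated sample was higher in all 3 pairs (0.60, 0.75 and 0.50), but the groups overlapped, since untreated replicate 1 stood above treated replicate 3. The fitted change was 0.62 (SE 0.24, 95% confidence interval 0.03 to 1.20), or 1.53-fold.

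**Figure D1:**
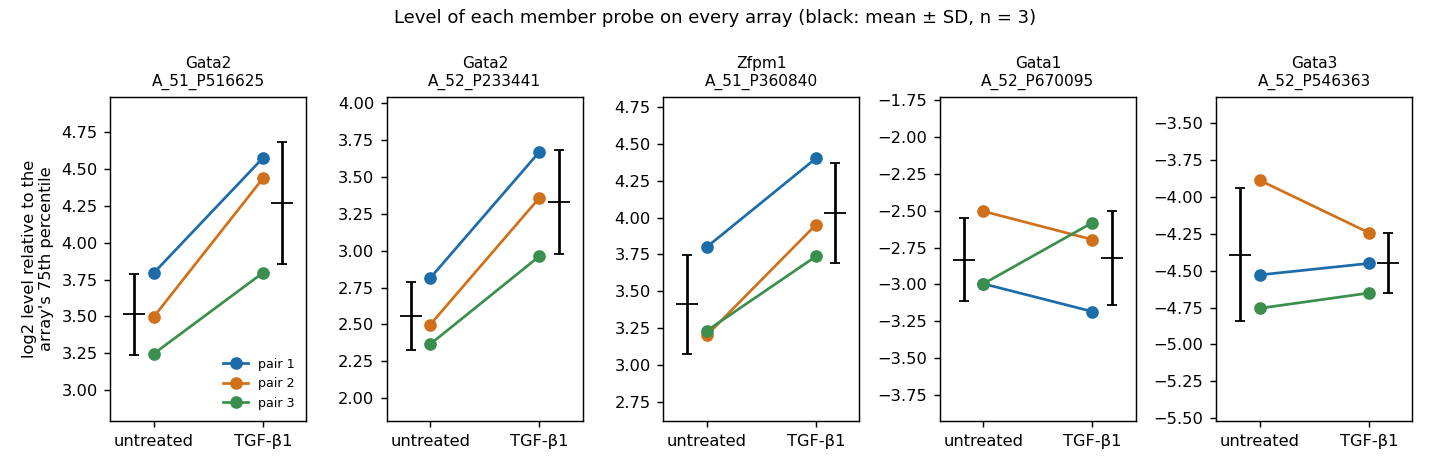
Log2 level of each of the 5 probes relative to the array's 75th percentile (vertical axis, the same span in each panel) in the untreated and TGF-β1 samples, with a line for each replicate pair and the mean ± SD of each group in black (n = 3). Both Gata2 probes and Zfpm1 are higher after treatment in all 3 pairs, while the lines of Gata1 and Gata3 run both ways.

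Gata1, the erythroid and megakaryocyte factor, gave a weak signal. Its probe was printed as 10 spots per array, 1 of which was left out as an outlier on the array of untreated replicate 2, and the SD of the log2 spot signals within an array was between 0.066 and 0.12. The mean spot signal was 113.3, 176.7 and 99.7 untreated and 97.4, 155.5 and 172.5 treated, between 4.37 and 8.28 times the local background before subtraction. The log2 levels were -2.996, -2.50 and -2.996 against -3.18, -2.70 and -2.58, so the groups overlapped. Pairs 1 and 2 were lower after treatment (-0.19 in both) and pair 3 was higher (0.41). The fitted change was 0.01 (SE 0.22, 95% confidence interval -0.52 to 0.55), an interval from 0.695-fold to 1.46-fold.

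The Gata1 level sorted by slide. The 6 arrays lay on 2 slides, with untreated replicates 1 and 3 and treated replicate 1 on slide 1 and the other arrays on slide 2. A value from 1 slide alone therefore sets 2 arrays against 1. Harvest 3 enters it in 1 group only, so such a value mixes treatment with harvest. Gata1 lay between -3.18 and -2.996 on slide 1 and between -2.70 and -2.50 on slide 2, without overlap, as was the case for 39.6% of the tested probes. The limma change with a term for the slide was -0.16 (SE 0.091, adjusted p = 0.617), and arrays of slide 1 alone gave -0.19 and those of slide 2 alone -0.13. Its sign turned with the slide term, and it also turned without one, as when treated replicate 3 was left out (-0.11). Over 22 alternative settings the Gata1 change was positive in 12 and negative in 10. Pair 3, whose value was positive, is the pair that spans both slides. The part of the slide in the Gata1 values was not tested further. For Gata2 and Zfpm1 the levels on the 2 slides overlapped. On slide 1 alone the Gata2 change was 1.05 for its first probe and 1.08 for its second, and on slide 2 alone it was 0.62 and 0.66. Gata2 was lowest in harvest 3, which is untreated on slide 1 and treated on slide 2. Pairs 1 and 2, each within 1 slide, gave 0.78 and 0.94 for the first Gata2 probe and 0.86 and 0.86 for the second. With the slide as a term the Gata2 probes had 0.84 and 0.87. Zfpm1 had 0.88 on slide 1, 0.64 on slide 2 and 0.76 when the slide was a term.

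Gata3, the T cell and type 2 lymphoid factor, also gave a weak signal. Its signal was 39.1, 67.7 and 29.4 in the untreated samples and 40.4, 53.2 and 41.0 in the treated ones, from 2.26 to 4.95 times the local background. The log2 levels were -4.53, -3.89 and -4.75 against -4.45, -4.24 and -4.65, and the treated values lay inside the untreated range. The pairs gave 0.08, -0.35 and 0.10, and the fitted change was -0.06 (SE 0.25, 95% confidence interval -0.66 to 0.54), from 0.634-fold to 1.46-fold. Within slides, again with 2 arrays against 1, it was 0.19 on slide 1 and -0.56 on slide 2. The sign of so small a value also turned in other settings, as it did for Gata1.

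Across the whole array, limma with Benjamini-Hochberg adjustment called 87 of 36384 probes at an adjusted p under 0.05, or 0.239%, with 76 higher (0.209%) and 11 lower (0.0302%). None of the 5 member probes was among them. The adjusted p was 0.624 and 0.466 for the first and second Gata2 probe, 0.799 for Zfpm1, and 1 for Gata1 and Gata3. At an unadjusted limma p under 0.05, 3 of the 5 member probes were higher and 0 lower, against 3.59% of all probes higher and 2.25% lower. The limma fit gave both Gata2 probes an unadjusted p of 0.0214 and 0.0115, and Zfpm1 one of 0.041. A change in the same upward direction in all 3 pairs was shown by the same 3 probes and by 14.4% of all probes, while 20.4% were lower in all 3 pairs. Groups that did not overlap, treated above untreated, were shown by the 2 Gata2 probes and by 5.38% of all probes. A fitted change as high as that of Zfpm1 or higher was shown by 2.75% of all probes.

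Treating the replicate number as a block takes out the difference in level between harvests, as between replicates 1 and 3 of Gata2. With the block the limma standard errors were 0.12 and 0.11 for the 2 Gata2 probes and 0.11 for Zfpm1, and 0.621% of all probes were called, 0.506% higher and 0.115% lower. The adjusted p was 0.11 and 0.0916 for Gata2 and 0.13 for Zfpm1, so none passed. At an unadjusted p under 0.05 again 3 of the 5 member probes, those of Gata2 and Zfpm1, were higher and 0 lower, against 6.01% of all probes higher and 5.22% lower.

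The call depended on which values of the same arrays were used together with the block. In the authors' log2 matrix the pair changes were more even, at 0.75, 0.76 and 0.85 for the first Gata2 probe, 0.89, 0.88 and 0.85 for the second and 0.57, 0.68 and 0.75 for Zfpm1. With the replicate block on these values, a combination chosen after the data were seen, limma called 2.37% of all probes (1.68% higher) and 3 of the 5 member probes, those of Gata2 and Zfpm1, all higher. The first Gata2 probe had 0.79 (SE 0.072, adjusted p = 0.01), the second 0.87 (SE 0.07, adjusted p = 0.00707) and Zfpm1 0.67 (SE 0.076, adjusted p = 0.0181). The authors' values without the block gave the same sizes and no call for any member (adjusted p = 0.463, 0.209 and 0.457), where 0.539% of probes were called. The size of the change was therefore much the same in both sources, and the standard error differed.

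**Figure D2:**
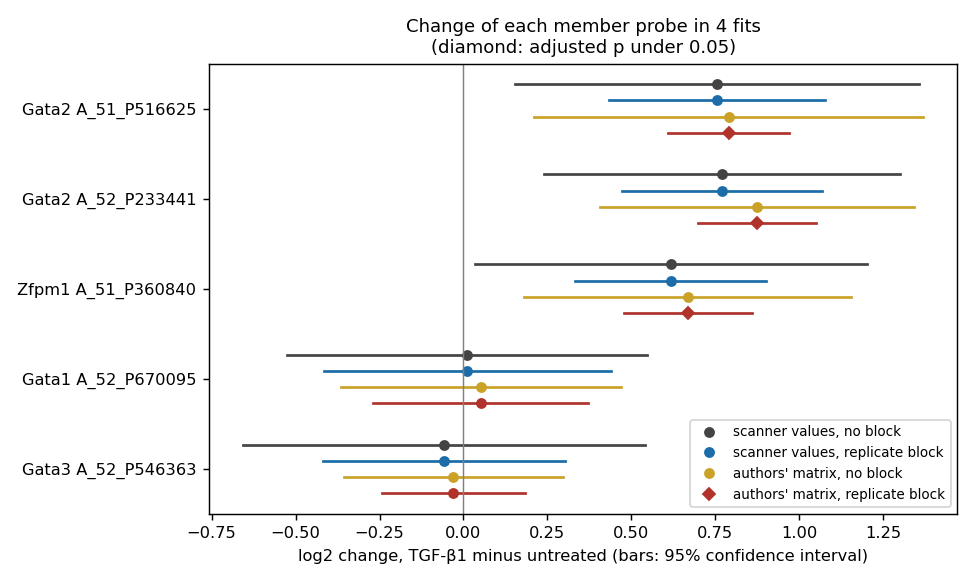
Log2 change of each probe, TGF-β1 minus untreated (horizontal axis), with its 95% confidence interval in 4 limma fits: scanner values or the authors' matrix, each without and with the replicate block. Diamonds mark an adjusted p under 0.05; they appear for both Gata2 probes and Zfpm1 with the authors' matrix and the block, and the intervals of Gata1 and Gata3 include 0 in each fit drawn.

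Whether Gata2 moved apart from the other members was tested on the log2 difference between its first probe and the other gene's probe within each array, a measure of unequal change and not of relative amount. Against Gata1 this difference was 0.74 higher after treatment, and against Gata3 0.81 higher, positive in all 3 pairs in both cases. The pairs gave 0.97, 1.13 and 0.13 against Gata1 and 0.70, 1.29 and 0.45 against Gata3. Without treated replicate 1 the difference against Gata1 was 0.41. The exact two-sided permutation test gave p = 0.2 for Gata1 and p = 0.1 for Gata3, adjusted p = 0.3 for both over 3 comparisons, and no p under 0.1 is possible with 3 arrays in each group. Against Zfpm1 the difference was 0.14 higher (exact permutation p = 0.5, adjusted p = 0.5), and the pair values were 0.18, 0.19 and 0.04. It ran from 0.01 without treated replicate 2 to 0.23 without untreated replicate 2. Whether Gata2 changed unequally to Gata1 or Gata3 was therefore not decided, as the test could not reach the threshold at this number of arrays.

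The genes with the most similar pattern to Gata2 were ranked by the root mean square difference between centred log2 levels over the 6 arrays, among 15637 genes with a symbol. The 5 nearest were Txk, a Tec-family tyrosine kinase of lymphocytes (0.089), Klhl6, a BTB-kelch protein of B cells (0.098), Nfic, a nuclear factor I transcription factor (0.12), Hes5, a Notch-target repressor (0.12), and Eogt, a glycosyltransferase that acts on EGF repeats (0.12). The median over all genes was 0.56. Zfpm1 stood at rank 23 with 0.17. The changes of the 5 nearest genes ran from 0.61 for Klhl6 to 0.88 for Eogt, and none was called without or with the replicate block (limma adjusted p from 0.238 to 0.723 without it and from 0.0556 to 0.218 with it). These genes were picked for likeness to Gata2 on the same 6 arrays, so a rise of similar size follows from the choice. For Zfpm1 the nearest were Myo1c (0.091) and Cx3cl1 (0.099). For the dim members they were Nrip2 (0.015) and B3galt1 (0.017) for Gata1, and Cyth3 (0.068) and Kank3 (0.072) for Gata3. The median over all genes was lower for these members than for Gata2, at 0.50 for Zfpm1, 0.31 for Gata1 and 0.36 for Gata3.

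**Figure D3:**
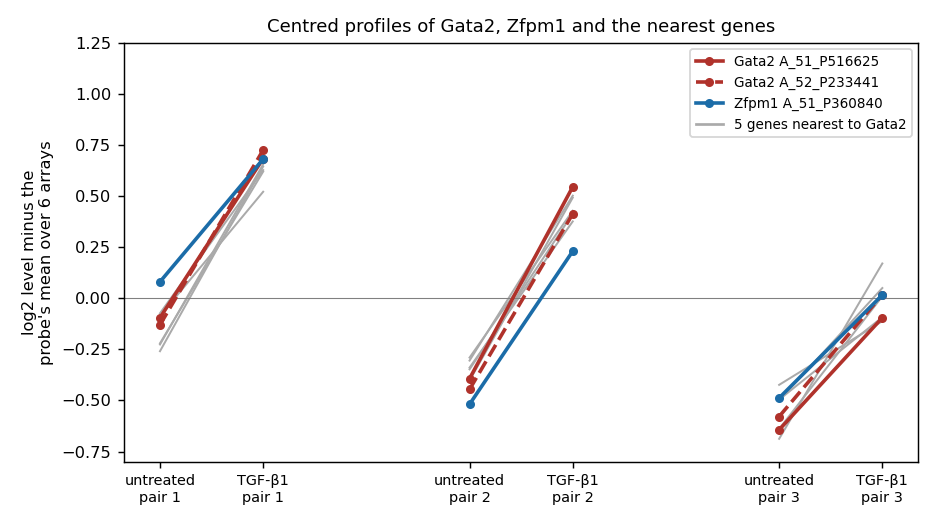
Log2 level minus the probe's mean over the 6 arrays (vertical axis) in the untreated and TGF-β1 sample of each pair, for both Gata2 probes, Zfpm1 and the 5 genes nearest to Gata2. Every line goes up within each pair, which for the 5 nearest genes follows from how they were picked. Pair 3 lies lowest after treatment for both Gata2 probes and Zfpm1.

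The genes that act with or under the GATA factors were taken from 8 lists with 130 gene symbols, 116 of which were measured. Sfpi1, an older name of Spi1, was counted among them as a separate symbol. Apart from the progenitor list described last, the lists held no gene past the threshold, without or with the block. At an unadjusted limma p under 0.05 without the block, 3.59% of all probes were higher and 2.25% lower. The counts at that p in each list are to be read beside these shares. The other GATA zinc-finger and FOG genes had 8 of 9 measured and 0 called by limma, 1 higher and 0 lower at an unadjusted p under 0.05, and a median log2 change of 0.06 against -0.01 for all probes. The highest was Gatad2b, a NuRD subunit with a GATA-type zinc finger, at 0.59 (SE 0.21, adjusted p = 0.695). Gata6, a factor of endoderm and heart, had -0.12 (SE 0.36), and Zfpm2, the gene of FOG2, had 0.14 (SE 0.38).

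The DNA-binding partners of GATA factors in progenitors had all 20 measured and 0 called by limma, with 1 higher and 1 lower at an unadjusted p under 0.05 and a median of -0.05. GATA factors sit in a complex with the basic helix-loop-helix protein TAL1, the bridging proteins LMO2 and LDB1 and an E protein. Tal1 had 0.19 (SE 0.25), Ldb1 0.21 (SE 0.22) and Lyl1, a relative of Tal1, 0.11 (SE 0.24), each with an adjusted p of 1. Lmo2 had the most negative value, -0.67 (SE 0.28, adjusted p = 0.858; 0.136 with the replicate block), and its pair values were -0.86, -0.67 and -0.48. Runx1, a core stem cell factor, had the most positive, 0.58 (SE 0.14, adjusted p = 0.339). Its levels of -0.06, -0.12 and 0.08 untreated lay below the treated 0.75, 0.42 and 0.48, as was the case for 5.38% of all probes. The ETS factors Fli1 and Spi1 had -0.20 (SE 0.16) and 0.02 (SE 0.18). The Lhx2 probe itself was dim, between -4.55 and -3.86 on the 6 arrays, with a change of 0.04, and the files do not say whether it reads the introduced copy.

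The FOG1 corepressors and acetyltransferases had 14 of 16 measured and 0 called by limma, with 0 at an unadjusted p under 0.05 and a median of 0.01. Their values ran from -0.21 for Mbd3, a NuRD subunit, to 0.30 for Ctbp2. The genes of GATA protein stability and signalling had 13 of 13 measured, 0 called by limma, 1 higher at an unadjusted p under 0.05 and a median of -0.08. That 1 was Fbxw7, the substrate subunit of the ubiquitin ligase that marks GATA2 and GATA3, at 0.32 (SE 0.12, adjusted p = 0.742), and its pairs gave 0.32, 0.30 and 0.35. The most negative was the heat shock gene Hspa1b (-0.35, SE 0.16).

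Of 28 erythroid and megakaryocyte genes known as GATA1 targets 20 were measured and 0 called by limma, with 2 higher and 1 lower at an unadjusted p under 0.05 and a median of 0.04. Bcl2l1, the gene of the survival protein BCL-XL, had 0.59 (SE 0.13, adjusted p = 0.254) and Gfi1b, a repressor of erythroid and megakaryocyte cells, 0.47 (SE 0.16, adjusted p = 0.635). Klf1, the erythroid Krüppel-like factor, was dim and had -0.01 (SE 0.15). Alas2, the erythroid enzyme of haem synthesis, was dim as well and had -0.35 (SE 0.14, adjusted p = 0.818). The mast cell and basophil genes known as GATA2 targets had 11 of 12 measured, 0 called by limma, and 0 higher and 1 lower at an unadjusted p under 0.05. With the block 0 were higher and 4 lower at that p, against 6.01% and 5.22% of all probes. Other lists held such genes with the block as well, with 8 lower in the progenitor list and 3 higher among the GATA1 targets. The median of the mast cell and basophil genes was -0.01, and within slides -0.03 on slide 1 and -0.46 on slide 2. Each slide alone sets 2 arrays against 1, with harvest 3 in 1 group only. Kit, the stem cell factor receptor, had -0.46 (SE 0.24, adjusted p = 1; 0.198 with the replicate block) and pair values of -0.50, -0.40 and -0.50. Cpa3, a mast cell protease, had -0.37 (SE 0.24), with pair values of -0.42, -0.29 and -0.41. Ms4a2, a chain of the IgE receptor, had -0.50 (SE 0.13, adjusted p = 0.363), and Tpsb2, a tryptase, 0.29 (SE 0.40).

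The T cell and type 2 lymphoid genes known around GATA3 had 14 of 15 measured, 0 called by limma, 1 higher and 0 lower at an unadjusted p under 0.05 and a median of -0.04. The 1 was Notch1, a receptor that acts upstream of GATA3 in T cells, at 0.70 (SE 0.27, adjusted p = 0.762; 0.0977 with the replicate block), and its pairs gave 0.65, 0.62 and 0.82. Cd3e, a chain of the T cell receptor complex, had -0.45 (SE 0.29).

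The progenitor genes tied to GATA2 had 19 of 20 measured and a median of -0.04 (0.06 within slide 1 and -0.33 within slide 2). The within-slide medians again mix treatment with harvest 3. The symbol not found was Sfpi1, and the gene was measured as Spi1 in the partner list. At an unadjusted limma p under 0.05, 1 of the 19 was higher and 5 lower, and with the block 2 and 8. The shares of all probes were 3.59% and 2.25%, and with the block 6.01% and 5.22%. The list was chosen with earlier results of these data known. Past the adjusted threshold, 1 of its genes fell by limma without the block (0.0302% of all probes) and 3 with it (0.115%), and 0 rose. The 1 was Gfi1, a repressor that restrains stem cell cycling, which was 2.65-fold lower (log2 -1.40, SE 0.14, adjusted p = 0.0262; 0.0357 with the replicate block). With any 1 array left out, 0 genes of this list passed, and 0 passed with the slide as a block. Gfi1 read 3.37, 3.26 and 3.48 untreated and 1.79, 2.07 and 2.04 treated. With the block Meis1, a homeobox cofactor of self-renewal (-1.41, SE 0.22 without the block; blocked adjusted p = 0.0412), and Cebpa, a driver of granulocyte fate (-1.09, SE 0.20; blocked adjusted p = 0.0454), passed as well. Cdkn1c, the gene of p57, had 0.07 (SE 0.15, 95% confidence interval -0.29 to 0.42), and Cd34, a progenitor surface marker, 0.39 (SE 0.13, adjusted p = 0.663).

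**Figure D4:**
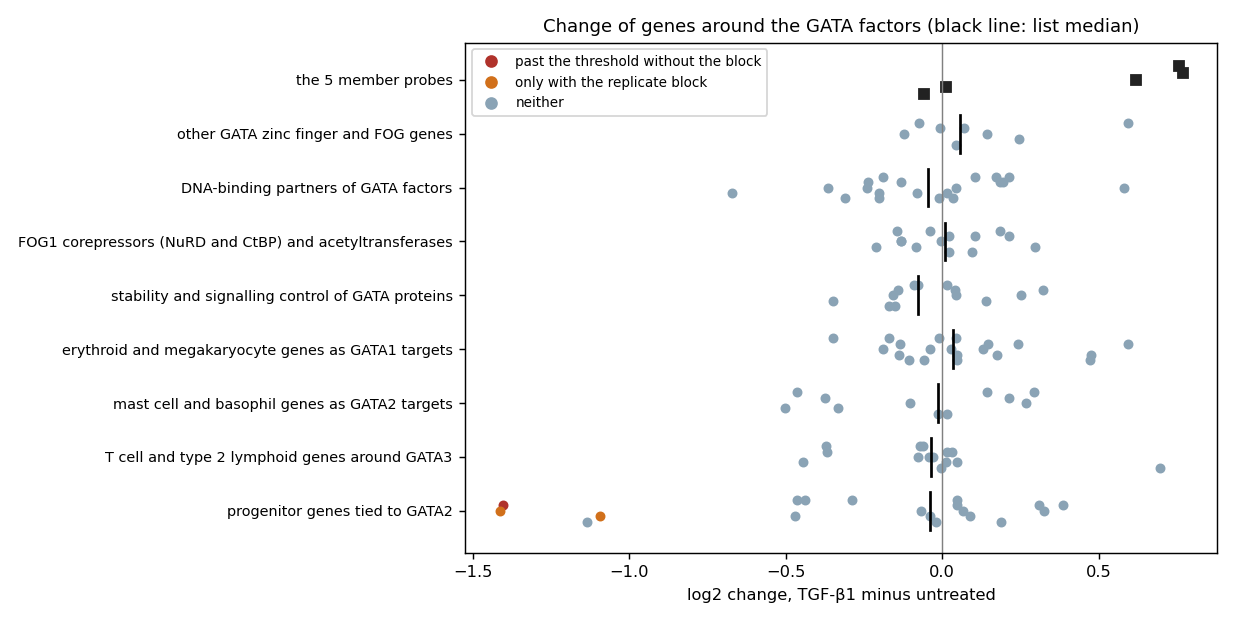
Log2 change, TGF-β1 minus untreated (horizontal axis), of the 5 member probes (squares) and of each measured gene in the 8 lists (circles, 1 probe per gene), with the list median as a black line. Most genes lie within 0.5 of 0, and the 3 red or orange circles, Gfi1 (past the threshold without the block) and Meis1 and Cebpa (with it), are in the progenitor list.

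The identity of the cells was checked against marker lists, and bulk RNA cannot tell fewer cells of a type from less RNA per cell. All 8 progenitor markers were measured, and the log2 of their summed levels lay between 7.09 and 7.22 untreated and between 7.14 and 7.33 treated. Levels were summed before the log2 was taken, so the brightest genes, here Cd34 and Spn, weigh most in such a sum. This sum held genes that went both ways: 2 were higher in all 3 pairs, Cd34 (0.58, 0.41 and 0.17) and Ly6a (0.18, 0.30 and 0.17), and 3 were lower in all 3 pairs, Ptprc (-0.39, -0.22 and -0.55), Cd48 (-0.30, -0.094 and -0.71) and Kit. Of 6 erythroid markers 4 were measured, with summed levels from -1.58 to -1.34 untreated and -1.61 to -1.28 treated. The 5 megakaryocyte markers ranged from 4.40 to 6.20 untreated and from 4.19 to 6.03 treated. Pf4, a platelet chemokine, read 6.05, 5.77 and 4.20 untreated and 5.80, 5.91 and 3.98 treated, so it was low in pair 3, as was Gata2. Gata1 sorted by slide, and pair 3 spans both slides, so its level there cannot be read in the same way. The 6 mast cell markers ranged from 3.88 to 4.41 untreated and 3.53 to 4.12 treated, the 7 granulocyte or macrophage markers from 8.98 to 9.19 and 9.01 to 9.08, and the 7 mesenchymal markers from 3.80 to 5.08 and 3.28 to 5.16. Harvest 3 was lowest in collagen and fibronectin, in both groups, and Gata2 was also lowest there. The other harvests did not share this order: harvest 2 had more Col1a1 and Fn1 than harvest 1, and less Gata2. Acta2, of the same list, read 3.35, 3.10 and 3.68 untreated and 3.92, 3.16 and 3.07 treated. Col1a1 read -0.35, 1.91 and -3.61 untreated and -0.063, 2.13 and -3.996 treated. Fn1 read -0.44, 1.43 and -6.40 untreated and -0.4999, 1.39 and -5.94 treated, and it was well above background on 5 of 6 arrays. The 5 measured T cell markers ranged from 0.66 to 0.92 and 0.41 to 0.81, the 5 B cell markers from 1.002 to 1.48 and 0.996 to 1.36, and 3 of 4 endothelial markers were measured. The untreated and treated ranges of the summed level overlapped for each of these lists, a measure that says little of a list's dim genes. Within pairs, 2 of the 6 mast cell markers were lower in all 3, Cpa3 and Ms4a2, and 0 were higher in all 3. Of the 7 mesenchymal markers 1 was higher in all 3 pairs and 0 lower. Of all probes 14.4% were higher and 20.4% lower in all 3 pairs, and the marker counts are to be read beside these shares. The part of other cells in the Gata2 and Zfpm1 values was not tested.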

How the data were processed

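Per the file headers, the authors extracted spot intensity from Agilent arrays of design 014868 (build mm8) with Feature Extraction 10.1.1.1; the deposited processed intensity is background-subtracted and not scaled between arrays. The authors' deposited log2 matrix covers the same arrays. Each column correlates with that array's log2 median signal (r from 0.99951 to 0.99989). The submitters' processing notes name limma without a version, and how the matrix was scaled is not stated in the labels or headers.

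Here log2 processed intensity was taken minus the array's 75th percentile (794.2 to 1031), spots of a probe were averaged without outlier spots (43 to 101 per array), and probes well above background on at least 3 of 6 arrays were tested (36384, of which 39 lacked a value on an array). No spot was saturated: the count was 0 on each array. Names came from unversioned RefSeq accessions in a GRCm38.p6 table, which named 23374 probes. Groups were compared probe by probe with limma 3.58.1 in R 4.3.3, without covariates, with Benjamini-Hochberg adjustment over all tested probes and a threshold of 0.05. Each listed gene was represented by its brightest passing probe. The fit was tested on simulated data. The number of arrays limits the precision.

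Same-numbered samples deviated together (r = 0.627, 0.795 and 0.577, against -0.749 to 0.0648 for different numbers), and the series design describes separate harvests, so the number is taken as pairing the samples. Members and lists were chosen with earlier results of these data known. Genes named are the members, in each list those past the threshold, the extremes of change and some well-known genes, the nearest in pattern, and, after their values were seen, Lhx2, Erg, Dapp1 and the marker genes. Normexp used the median spot signal with an offset of 50, as the files hold no mean signal. Alternatives were the replicate block, the slide, background correction, scaling, the authors' matrix, the filter, array weights, the unit of the test and leaving out each array.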

Additional observations from a re-analysis of the deposited data

How the results depend on the processing

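Both Gata2 probes and Zfpm1 stayed higher after treatment in each alternative run: 22 for the first Gata2 probe (0.60 to 1.05), 20 for the second (0.60 to 1.08, the highest within slide 1) and 22 for Zfpm1 (0.43 to 0.88). Of the 5 member probes 0 passed in the limma fits except with the replicate block on the authors' matrix (3 passed) and on quantile-normalized values (2), where Gata2 had 0.78 (adjusted p = 0.0436) and 0.79 (0.0412); on the matrix they had 0.79, 0.87 and, for Zfpm1, 0.67. The replicate block on the scanner values changed no call of a member. Gata1 turned negative with the slide as a block (-0.16), with normexp without and with the block (-0.21 in both) and in pairs 1 and 2 alone (-0.19). Gata3 was 0.19 with array weights and -0.56 on slide 2 alone. Leaving out each array in turn, Gata1 ran from -0.11 to 0.19, Gata3 from -0.24 to 0.19, the Gata2 probes from 0.60 to 0.99 and 0.60 to 0.95, and Zfpm1 from 0.43 to 0.81; 0 members passed. Normexp shifted the median of all probes to -0.17, and relative to it Gata2 had 1.0 and 1.07, Zfpm1 0.88, Gata1 -0.05 and Gata3 -0.17.

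The count over all probes, 87 (76 higher, 11 lower), was 226 (184, 42) with the replicate block, 7 (7, 0) with normexp and 0 with normexp and the block, 196 (165, 31) on the authors' matrix and 864 (612, 252) there with the block, 441 (352, 89) with quantile normalization and the block, 320 (258, 62) with array weights, and 16 to 30 with single arrays left out. In the list of progenitor genes 1 gene passed, and 3 with the replicate block or array weights, 4 with the block on the authors' matrix or on quantile-normalized values, and 0 with the slide as a block, with normexp without or with the block, in pairs 1 and 2 alone or with any array left out. The 4 were Gfi1, Meis1, Cebpa and Dapp1. Dapp1 had -1.06 on the matrix (limma adjusted p = 0.024) and -1.11 on quantile-normalized values (0.036). On the scanner values it had -1.14 (limma adjusted p = 0.0851, and 0.0508 with the block). The matrix with the block also called 1 partner (Runx1), 1 GATA1 target (Bcl2l1) and 1 GATA3-related gene (Notch1), the last also with quantile normalization and the block (1). The causes were not tested. The combinations of the block with other values, and pairs 1 and 2 alone, were chosen after the data were seen. The signals of Gata1 and Gata3 over background limit what can be said of them.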
